A study of Mus musculus with 12 samples.

Results

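The EGR transcription factors *Egr1* and *Egr2* and the corepressor gene *Nab2* were followed across thymocytes that lacked or retained the Mediator subunit MED23, with and without stimulation of the T-cell receptor. Every probe set that the platform annotation assigns to 1 of these 3 symbols alone was taken. There were 4 of them among the 12488 probe sets of the Affymetrix U74Av2 murine array, with 2 for *Egr1* (98579_at and 161802_i_at), 1 for *Egr2* (102661_at) and 1 for *Nab2* (100962_at). All 4 passed the filter on low signals that left 9478 probe sets for testing, 161802_i_at only through its mock signals in MED23 null mice. The other relatives on the array were limited to *Nab1*, since *Egr3* and *Egr4* had no probe set with a single symbol.

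MED23 null thymocytes came from 2 Med23flox/flox;Lck-Cre mice, in which Cre driven by the *Lck* promoter recombines *Med23* in early T-cell development. The controls were 2 Med23+/+;Lck-Cre mice, which carry the transgene with intact *Med23*, and 2 Med23flox/flox mice, which carry the floxed alleles without Cre. All 6 mice were females of a C57Bl/6 x 129Sv (F1) background aged 6 to 7 weeks. Unsorted thymocytes of each mouse rested for 4 h and were then moved for 3 h to a well with plate-bound αCD3 antibody or to one without it (mock), so that each mouse gave an αCD3 array and a mock array and 12 arrays were measured.

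EGR proteins are zinc finger transcription factors of the immediate early class. In T-cells the receptor signals through the MAP kinase cascade to ETS factors of the ELK group, which sit with SRF on CArG boxes in front of immediate early genes, and *Egr1* is the textbook example of such a gene. EGR1 and EGR2 bind GC-rich sites and act in thymocyte selection. NAB1 and NAB2 carry no DNA-binding domain and repress through EGR proteins, and NAB2 is itself known as an EGR target, which makes a feedback loop. MED23 is the Mediator subunit through which MAP kinase-activated ELK1 recruits the complex.

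*Egr2* lies on chromosome 10 at chr10:67534469-67542188 on the plus strand of GRCm38.p6, and *Nab2* on the same chromosome at chr10:127660918-127666703 on the minus strand. The bases before their annotated RefSeq start sites are shown here because both genes rose after αCD3. The matches in capitals are those to a CArG box, an ETS core (CCGGAA), a CRE core (TGACGT) and an EGR site (GCGNGGGCG), searched on both strands. *Egr2* has 5 annotated windows, of which 2 were chosen for printing because they hold matches. Of the others, 2 overlap the window of start site B and share its matches, and the one at chr10:67535249-67535498 held none of the 4 motifs. *Nab1*, on chromosome 1 at chr1:52455849-52500712, is printed beside its paralog. 
*Egr2*, start site A, chr10:67537316-67537565, plus strand: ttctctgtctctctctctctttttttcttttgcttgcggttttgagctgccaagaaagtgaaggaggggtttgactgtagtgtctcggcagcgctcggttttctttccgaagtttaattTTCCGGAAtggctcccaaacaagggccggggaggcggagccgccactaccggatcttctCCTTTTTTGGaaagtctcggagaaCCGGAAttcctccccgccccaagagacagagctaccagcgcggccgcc
*Egr2*, start site B, chr10:67537619-67537868, plus strand: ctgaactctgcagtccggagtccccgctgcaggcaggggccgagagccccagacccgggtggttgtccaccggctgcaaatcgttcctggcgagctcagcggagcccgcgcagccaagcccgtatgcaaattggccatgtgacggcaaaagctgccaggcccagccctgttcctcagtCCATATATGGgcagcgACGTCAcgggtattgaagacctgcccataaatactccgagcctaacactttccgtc
*Nab2*, chr10:127666704-127666953, minus strand: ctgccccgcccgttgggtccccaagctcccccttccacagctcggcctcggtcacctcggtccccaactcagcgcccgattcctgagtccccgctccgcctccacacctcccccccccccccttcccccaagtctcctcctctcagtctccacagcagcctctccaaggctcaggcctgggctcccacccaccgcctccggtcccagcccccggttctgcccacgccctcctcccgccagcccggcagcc
*Nab1*, chr1:52500449-52500698, minus strand: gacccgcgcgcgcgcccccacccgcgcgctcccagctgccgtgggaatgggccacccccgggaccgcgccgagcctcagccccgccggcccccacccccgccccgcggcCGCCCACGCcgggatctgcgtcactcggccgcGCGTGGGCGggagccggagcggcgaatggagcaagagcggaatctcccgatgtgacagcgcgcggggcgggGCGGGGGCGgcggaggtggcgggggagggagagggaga

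Counted back from -1 at the last base before the start, the window of start site A of *Egr2* held a CArG box at -72 to -63, an ETS core at -48 to -43 and a pair of ETS cores on opposite strands that overlap each other at -131 to -124. The window of start site B held a different CArG box at the same distance of -72 to -63, followed by a CRE core at -56 to -51. None of the 4 motifs occurred in the *Nab2* window, and the *Nab1* window held 3 EGR sites, at -141 to -133, -109 to -101 and -38 to -30. Among 32817 annotated windows of 250 bases, a CArG box was found in 1.47%, an EGR site in 4.7%, a CRE core in 6.46% and an ETS core in 12.0%. A match describes the letters of the sequence and does not show that a factor binds there.

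**Figure D1:**
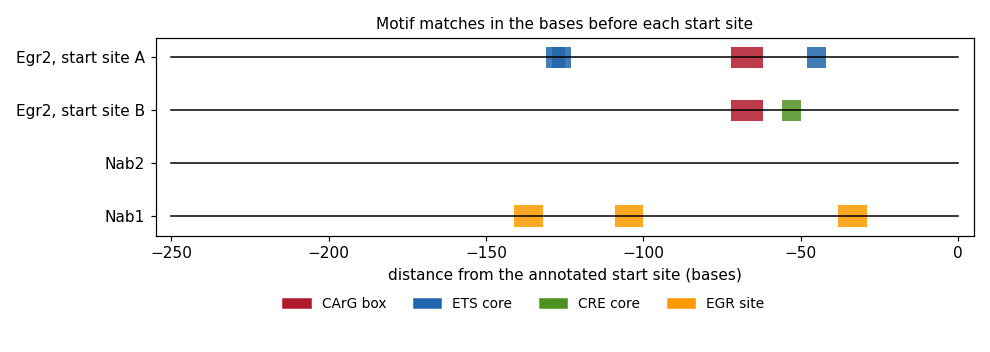
Motif matches in the 250 bases before the 2 printed starts of *Egr2* and before the starts of *Nab2* and *Nab1*, by distance from the start site in bases. Coloured blocks mark the matches on either strand. The *Egr2* windows drawn, chosen for their matches, hold a CArG box at -72 to -63, the *Nab2* window holds none of the 4 motifs and the *Nab1* window holds 3 EGR sites.

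Signals are the MAS5 values that the authors deposited, on a linear scale. The *Med23* probe set (95616_at) had αCD3 signals of 252 and 239 in MED23 null mice, against 310 to 489 in the 4 controls, and mock signals of 268 and 207, against 288 to 424. Both null mice lay below every control in each treatment, as for 8.61% of tested probe sets after αCD3 and 8.44% in mock, the limma differences did not pass (adjusted p = 0.738 after αCD3 and 0.621 in mock), and the position of its probes relative to the deleted exons was not checked. The αCD3 array of Med23flox/flox replicate 1 stood apart, with a lower quartile of 85.3 against 50.02 to 58.4 on the others and a mean correlation of 0.905 against 0.937 to 0.945. Thymocyte markers were present in every group, with summed αCD3 signals of 96605 to 99995 in null mice and 101706 to 104171 in controls for 10 of 11 listed genes, *Rag1*, *Dntt* and *Cd8b1* among them. Markers of B cells, myeloid and stromal cells overlapped between null and control mice after αCD3. In mock-treated cells the sums did not overlap for B cells (1675 and 1897 in null samples, against 1212 to 1555 in control samples) or myeloid cells (903 and 932, against 643 to 841), nor for thymocyte markers (94175 and 98759, against 111057 to 117684). Single thymocyte markers went both ways. In mock, 4 of the 10 lay below every control in both null mice and 1, *Cd4*, above (9.27% of tested probe sets). After αCD3, 1 lay below and 2, *Cd4* and *Thy1*, above (6.9%). Erythroid markers, 3 of 5 listed, summed after αCD3 to 15712 and 38253 in null samples, against 6167 to 15300 in control samples. The part of these cells in the results below was not tested.

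After αCD3, *Egr1*, *Egr2* and *Nab2* were among the brighter genes of control thymocytes and were less bright in MED23 null thymocytes. The *Egr1* signal (98579_at) was 748 and 544 in the MED23 null mice, against 1484 and 1438 in the Lck-Cre mice and 1620 and 2283 in the Med23flox/flox mice. Both null values lay below all 4 control values, at the 78.4th and 72.2nd percentile of their arrays against the 89.4th to 94.2nd in controls. The *Egr2* signal was 729 and 707 in the null mice, against 1321 and 1352 in the Lck-Cre mice and 1503 and 1585 in the Med23flox/flox mice. The null mice were close to each other and again did not overlap with any control. The *Nab2* signal was 404 and 587 in the null mice, against 970 and 946 in the Lck-Cre mice and 1134 and 1819 in the Med23flox/flox mice, and these groups did not overlap either. Both null mice lay below every control after αCD3 for 8.61% of all tested probe sets.

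In mock-treated cells the 3 genes differed from one another. The *Egr1* signal was 209 and 528 in the null mice, against 340 and 337 in the Lck-Cre mice and 226 and 471 in the Med23flox/flox mice, so that the null mice held both the lowest and the highest value. The *Egr2* signal was 198 and 235 in the null mice, against 114 and 56.6 in the Lck-Cre mice and 255 and 167 in the Med23flox/flox mice. The null values lay above both Lck-Cre values, as for 19.8% of tested probe sets, and within the range of the Med23flox/flox mice. The *Nab2* signal was 133 and 203 in the null mice, against 294 and 306 in the Lck-Cre mice and 263 and 354 in the Med23flox/flox mice. For *Nab2* both null mice thus lay below every control without stimulation too, as for 8.44% of tested probe sets, unlike for *Egr1* and *Egr2*.

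**Figure D2:**
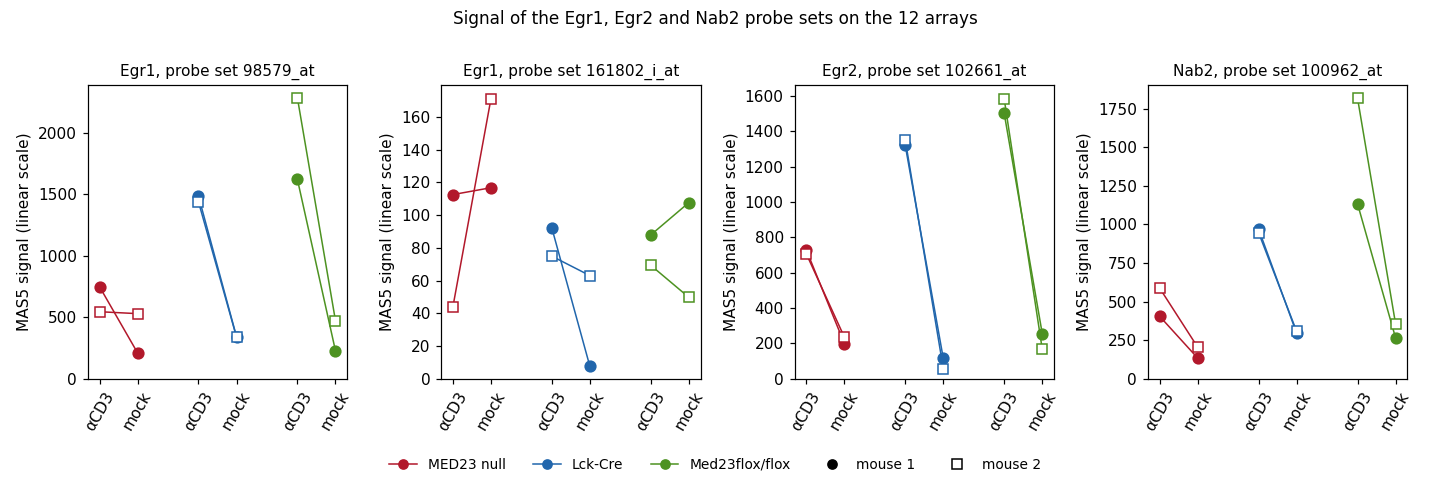
MAS5 signal on a linear axis for the 4 probe sets, with 1 line per mouse joining its αCD3 array (left) to its mock array (right) and genotypes in the order MED23 null, Lck-Cre and Med23flox/flox. After αCD3 the null mice sit at 544 and 748 for *Egr1* (98579_at), 707 and 729 for *Egr2* and 404 and 587 for *Nab2*, all below the controls, whereas the second *Egr1* probe set stays between 7.40 and 171 throughout.

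The second *Egr1* probe set, 161802_i_at, gave no comparable pattern. Its signal after αCD3 was 113 and 44.0 in the null mice, against 92.1 and 74.9 in the Lck-Cre mice and 87.9 and 69.3 in the Med23flox/flox mice. In mock-treated cells it was 117 and 171 in the null mice, against 7.40 and 63.0 in the Lck-Cre mice and 108 and 49.7 in the Med23flox/flox mice. The null mock values lay above every control, but their mean of 144 is what took this probe set past the filter of 100, the other conditions averaging 35.2 to 83.5, so nothing is read from it. Over the 12 arrays its correlation with 98579_at was 0.0635 (Pearson's r of log2 values), so the 2 probe sets for *Egr1* disagree. Most of its signals are under the filter of 100, and 98579_at is meant below where *Egr1* is named alone.

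Ordered by their mean signal, the 6 conditions fell into the same first 3 places for all 3 genes. The Med23flox/flox αCD3 arrays were highest, with 1952 ± 469 (SD, n = 2) for *Egr1*, followed by the Lck-Cre αCD3 arrays with 1461 ± 32.7 (SD, n = 2) and the null αCD3 arrays with 646 ± 144 (SD, n = 2), and the ranges of these neighbours did not overlap. The same held for *Egr2* and for *Nab2*, and for 1.79% of all tested probe sets. Below them, the mock arrays of the 3 genotypes overlapped for *Egr1*. For *Egr2* the null and Med23flox/flox mock arrays overlapped, with means of 216 and 211, and the Lck-Cre mock arrays were lower at a mean of 85.3. For *Nab2* the Med23flox/flox and Lck-Cre mock arrays overlapped and the null mock arrays were lowest, at 168 ± 49.9 (SD, n = 2).

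In control thymocytes αCD3 raised *Egr2* and *Nab2*. Induction, the αCD3 signal of a mouse divided by its own mock signal, was tested with limma on log2 values after 50 was added to each signal. *Egr2* was induced 11.6-fold and 23.9-fold in the Lck-Cre mice and 5.89-fold and 9.48-fold in the Med23flox/flox mice. On that scale it rose by 3.01 (standard error 0.22, adjusted p = 0.00808), the fourth smallest p of all 9478 probe sets. *Nab2* was induced 3.30-fold and 3.09-fold in the Lck-Cre mice and 4.31-fold and 5.14-fold in the Med23flox/flox mice, and rose by 1.80 on the log2 scale (standard error 0.15, adjusted p = 0.0108). *Egr1* was induced 4.36-fold and 4.27-fold in the Lck-Cre mice and 7.18-fold and 4.85-fold in the Med23flox/flox mice, and its log2 change of 2.17 (standard error 0.26) had an adjusted p of 0.0521, just outside the threshold of 0.05. Thus 2 of the 4 probe sets passed, where 0.148% of all tested probe sets rose. The study itself chose these genes on the same arrays, so the count is not independent evidence. All 3 genes were induced at least 2-fold in each of the 4 control mice, as were 0.496% of tested probe sets. The second *Egr1* probe set had ratios between 0.816 and 12.4 in the controls, with a log2 change of 0.38 (standard error 0.29).

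These calls were sensitive to the mice included. The *Nab2* call was lost without each of the 6 mice in turn, with adjusted p between 0.0549 and 0.0815, and with a variance trend. The *Egr2* call was lost without Lck-Cre replicate 1 or Med23flox/flox replicate 2 (adjusted p = 0.0815 and 0.0756), and both were lost with either control genotype alone. *Egr1* passed without either null mouse (adjusted p = 0.0271). The log2 values moved little across these fits, between 2.77 and 3.23 for *Egr2*, 1.66 and 1.90 for *Nab2* and 2.03 and 2.25 for *Egr1* when 1 mouse was left out.

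Within the control genotypes on their own, *Egr2* rose in Lck-Cre mice by a log2 value of 3.39 (standard error 0.25, adjusted p = 0.0407), where 0.0317% of probe sets rose. That call was lost without each of the 6 mice in turn, with adjusted p from 0.0948 to 0.698, and with a pseudocount of 16 (0.0828) or a variance trend (0.0854). In Med23flox/flox mice, where 0.0211% of probe sets rose, it was at 2.63 (adjusted p = 0.1), and passed with a pseudocount of 100 (adjusted p = 0.0319) or a filter of 200 (0.0439). The difference between the controls, Med23flox/flox minus Lck-Cre, was -0.76 (95% interval -1.62 to 0.10) for *Egr2* and 0.54 (-0.07 to 1.14) for *Nab2*, and neither passed. The *Egr2* αCD3 signals of the 2 control genotypes were close, with a log2 difference of 0.20 (-0.27 to 0.67), while the mock signals differed by 0.96 (0.25 to 1.67, adjusted p = 0.752). The larger *Egr2* ratios of the Lck-Cre mice therefore stood over lower mock signals.

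In MED23 null thymocytes the αCD3 to mock ratio of *Egr1* was 3.59 and 1.03, that of *Egr2* 3.68 and 3.01, and that of *Nab2* 3.05 and 2.89. *Egr1* in null replicate 2 thus hardly differed between the treatments, while the other 5 ratios were near 3 or above. The log2 change was 1.53 (standard error 0.31, 95% interval 0.79 to 2.27, adjusted p = 0.548) for *Egr2*, 1.32 (standard error 0.22, 0.80 to 1.84, adjusted p = 0.424) for *Nab2* and 0.83 (standard error 0.37, -0.05 to 1.71, adjusted p = 0.963) for *Egr1*. None of the 4 probe sets passed, where 0.0317% of all tested probe sets rose.

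**Figure D3:**
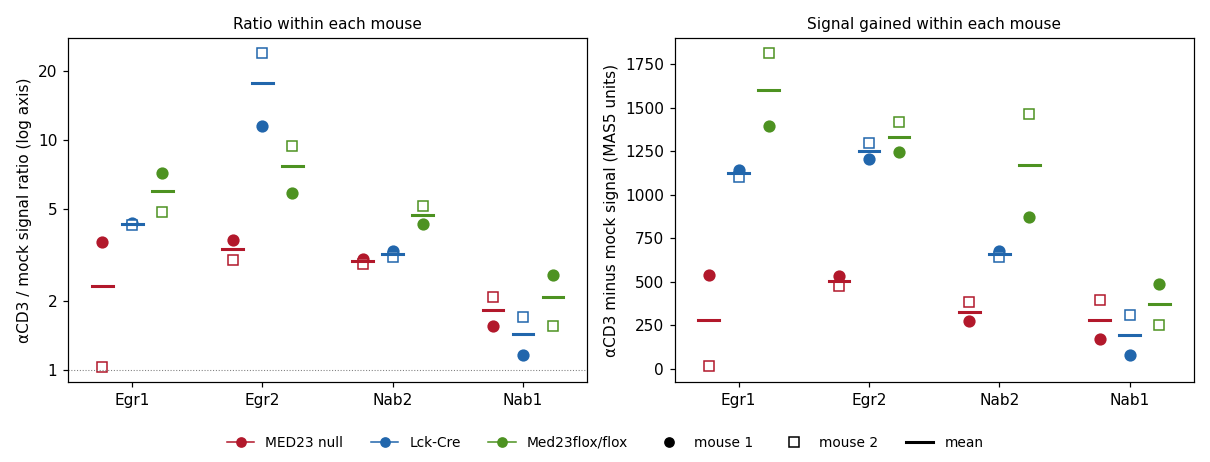
αCD3 signal of each mouse divided by its mock signal, on a logarithmic axis (left) and αCD3 minus mock signal in MAS5 units (right) for *Egr1* (98579_at), *Egr2*, *Nab2* and *Nab1*. Symbols are single mice, bars are means of 2 mice, and genotypes run from MED23 null to Lck-Cre and Med23flox/flox. For *Egr2* the null mice lie at 3.01 and 3.68 against 5.89 to 23.9 in controls.

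The induction was smaller in MED23 null than in control mice for *Egr1*, *Egr2* and *Nab2* in the means, but no difference passed the test across all probe sets. The log2 differences here are from limma after 50 was added to each signal, and are not logs of the mean ratios beside them. The mean ratio of *Egr2* was 3.34 ± 0.468 (SD, n = 2) in null mice and 12.7 ± 7.81 (SD, n = 4) in controls, with a log2 difference of -1.48 (standard error 0.38, 95% interval -2.38 to -0.58, adjusted p = 0.809). That control mean includes the 23.9-fold ratio of Lck-Cre replicate 2, whose mock signal was only 56.6. For *Egr1* the mean ratio was 2.31 ± 1.81 (SD, n = 2) in null mice and 5.17 ± 1.36 (SD, n = 4) in controls, with a log2 difference of -1.34 (standard error 0.45, -2.42 to -0.26, adjusted p = 0.95). That value depended on the null mouse, being -2.13 without null replicate 1 and -0.55 without null replicate 2. For *Nab2* the means were 2.97 ± 0.112 (SD, n = 2) in null mice and 3.96 ± 0.948 (SD, n = 4) in controls, and the log2 difference was -0.47 (standard error 0.27, -1.11 to 0.16). The ratios of both null mice lay below those of all 4 controls for each of the 3 genes, as they did for 7.36% of all tested probe sets. No probe set on the array passed, and 486 (5.13%) had an unadjusted p under 0.05.

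In signal units the gain of *Egr1* from mock to αCD3 was 539 and 15.6 in the null mice, against 1101 to 1813 in the controls. For *Egr2* the gain was 531 and 472 in the null mice, against 1207 to 1418 in the controls. For *Nab2* it was 272 and 384 in the null mice, against 641 to 1466 in the controls. The null gains lay below every control for all 3 genes, against 7.67% of all tested probe sets.

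Against each control genotype the differences in induction ran the same way with different sizes. For *Egr2* the log2 difference was -1.86 against Lck-Cre mice (95% interval -2.72 to -0.998, adjusted p = 0.871) and -1.10 against Med23flox/flox mice (-1.96 to -0.24, adjusted p = 0.692). For *Egr1* it was -1.13 (-2.45 to 0.20) against Lck-Cre mice and -1.55 (-2.87 to -0.22) against Med23flox/flox mice. For *Nab2* it was -0.20 (-0.81 to 0.40) against Lck-Cre mice and -0.74 (-1.35 to -0.14) against Med23flox/flox mice. None of these differences passed. The *Nab2* ratios of null and Lck-Cre mice, at 2.89 and 3.05 against 3.09 and 3.30, were nearly alike, although the interval still allows a lower induction.

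Comparing the αCD3 signals themselves, the mean in null mice was 0.378 times that of controls for *Egr1* (646 ± 144, SD, n = 2, against 1707 ± 392, SD, n = 4), a log2 difference of -1.33 (standard error 0.25, 95% interval -1.92 to -0.74, adjusted p = 0.493). It was 0.498 times for *Egr2* (718 ± 15.5, SD, n = 2, against 1440 ± 125, SD, n = 4), at -0.95 (standard error 0.17, -1.35 to -0.55, adjusted p = 0.493). For *Nab2* it was 0.407 times (495 ± 129, SD, n = 2, against 1217 ± 410, SD, n = 4), at -1.19 (standard error 0.31, -1.91 to -0.46, adjusted p = 0.597). None passed, and neither did any other probe set (584, or 6.16%, at an unadjusted p under 0.05). By p, *Egr2* stood 13th, *Egr1* 16th and *Nab2* 96th of the 9478. Signals of both null mice below every control were found for 3 of the 4 probe sets and for 8.61% of all tested ones. Such signals together with such an induction were found for the same 3 and for 2.74% of all. The study listed *Egr1*, *Egr2* and *Nab2* among genes with lower αCD3-induced expression in null than in control thymocytes on these same arrays. The ranks and counts given here, and those for induction and signal gain above, are therefore not independent evidence. In bulk thymocytes, fewer cells that express a gene and less RNA per cell cannot be told apart.

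Other measures moved with these αCD3 signals. RNA quality, read from the 3' over 5' signal ratio of the actin controls, differed with them, at 1.90 and 1.61 for the stimulated null samples against 1.35 to 1.41 for the stimulated control samples. In mock samples the actin ratios overlapped, at 1.44 and 1.63 for null and 1.35 to 1.60 for control samples. For *Gapdh* the stimulated groups overlapped, at 0.636 and 0.766 for the null samples and 0.599 to 0.648 for the control samples. The part of RNA quality in the differences was not tested. Of 8 markers of mature single positive thymocytes, 7 were on the array, and their summed αCD3 signal was 4692 and 5015 for null samples, against 7507 to 9927 for control samples. Of these 7, 6 lay below every control in both null mice after αCD3, against 8.61% of all tested probe sets, and 6 did in mock, against 8.44%. In both treatments it was 5 of 7, *Cd52*, *Ccr7*, *S1pr1*, *Slfn1* and *Gimap4*. In null samples the mean signal was 100 or more for 6 of the 7 after αCD3 and for 5 in mock, against 6 and 7 in control samples. *Klf2* averaged 36.2 after αCD3 and 40.5 in mock in null samples. By flow cytometry the study found normal proportions of CD4 and CD8 subsets in the thymus of such mice. Within isolated CD4 single positive null thymocytes it found less *Klf2* and *Cd52* mRNA, with *S1pr1* tending lower. The part of these markers in the *Egr1*, *Egr2* and *Nab2* signals was not tested. Without the Med23flox/flox mouse whose αCD3 array stood apart, the log2 differences were -1.34 for *Egr1*, -0.93 for *Egr2* and -1.20 for *Nab2*, close to those with it.

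The lower αCD3 signal of the null mice was found against both control genotypes. *Egr1* was 0.442 times the Lck-Cre mean and 0.331 times the Med23flox/flox mean, with log2 differences of -1.13 (95% interval -1.79 to -0.48) and -1.52 (-2.17 to -0.87). *Egr2* was 0.537 and 0.465 times these means, with log2 differences of -0.85 (-1.33 to -0.38) and -1.05 (-1.53 to -0.58). *Nab2* was 0.517 and 0.336 times these means, at -0.91 (-1.65 to -0.16) and -1.47 (-2.21 to -0.73). None of these differences passed in limma (adjusted p = 0.455 to 0.905), and both contrasts use the same null mice. In the comparison of the controls with each other, Med23flox/flox minus Lck-Cre, the intervals of all 3 genes included 0, with estimates of 0.39, 0.20 and 0.56. For 18.5% of tested probe sets both null mice lay below both Lck-Cre mice and for 20.2% below both Med23flox/flox mice, so each genotype on its own is a weak contrast.

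**Figure D4:**
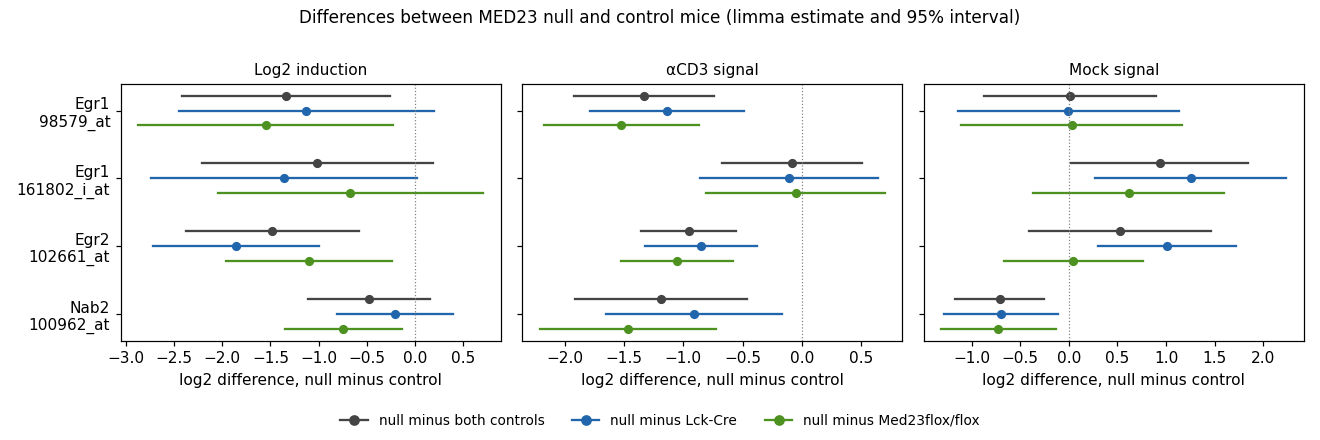
Log2 differences, MED23 null minus control, in induction (left), αCD3 signal (middle) and mock signal (right), with 95% intervals from limma, for the 4 probe sets against both controls pooled (grey), Lck-Cre mice (blue) and Med23flox/flox mice (green). The αCD3 intervals of *Egr1* (98579_at), *Egr2* and *Nab2* lie below 0 in all 3 contrasts, and only *Nab2* has mock intervals below 0 in all 3. The intervals are not adjusted for the number of probe sets, and no difference shown passed after adjustment.

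In mock-treated cells *Nab2* averaged 168 ± 49.9 (SD, n = 2) in null mice and 304 ± 37.7 (SD, n = 4) in controls, a ratio of 0.552 and a log2 difference of -0.71 (standard error 0.19, 95% interval -1.17 to -0.26, adjusted p = 0.442). Both null mice lay below every control, as for 8.44% of tested probe sets, and the difference was alike against Lck-Cre mice (-0.70, interval -1.29 to -0.11) and Med23flox/flox mice (-0.73, interval -1.32 to -0.14). *Egr1* averaged 368 ± 226 (SD, n = 2) in null mice and 343 ± 100 (SD, n = 4) in controls, and its log2 difference of 0.01 (interval -0.87 to 0.89) took the sign of whichever null mouse was kept, 0.59 without replicate 1 and -0.57 without replicate 2. *Egr2* averaged 216 ± 25.7 (SD, n = 2) in null mice and 148 ± 84.4 (SD, n = 4) in controls, a log2 difference of 0.53 (interval -0.41 to 1.46). Against Lck-Cre mice alone it was 1.01 (0.30 to 1.72, adjusted p = 0.533), and against Med23flox/flox mice 0.05 (-0.67 to 0.76). None of the 4 probe sets passed, nor did any other in mock-treated cells (701, or 7.4%, at an unadjusted p under 0.05).

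*Nab1*, the paralog of *Nab2* and the other corepressor of EGR proteins, had αCD3 signals of 485 and 753 in null mice, against 569 to 795 in controls, and mock signals of 315 and 362, against 306 to 489. The groups overlapped in both treatments. Its ratio averaged 1.81 ± 0.382 (SD, n = 2) in null mice and 1.75 ± 0.607 (SD, n = 4) in controls, with a log2 difference in induction of 0.08 (standard error 0.33, 95% interval -0.70 to 0.85). Whether *Nab1* and *Nab2* differ in this was not tested.

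The signalling chain from the receptor to the ETS factors was given by a list of 18 genes, of which 12 were on the array and tested, and none passed in any of the 5 pooled comparisons. In control mice its median log2 induction was 0.05, against 0.00 for all tested probe sets, with 2 of 12 at an unadjusted p under 0.05, where 7.78% of all tested probe sets were. The largest values were 0.74 for *Elk4*, an SRF partner of the ELK group (adjusted p = 0.215), 0.28 for the kinase gene *Braf* and 0.26 for the exchange factor gene *Sos1*. The lowest were -0.26 for *Ets1*, a lymphoid ETS factor, -0.25 for the adaptor gene *Grb2* and -0.07 for *Lat*, the adaptor of the T-cell receptor. The difference in induction between null and control mice had a median of -0.27 over the list, with 8 of 12 below 0, against -0.02 over all probe sets, and was lowest for *Elk4* at -0.86 (standard error 0.27, adjusted p = 0.93). For *Elk4* the null minus control difference was -0.17 in αCD3 signal and 0.70 in mock signal, and neither passed. Over the list the median difference was -0.04 in αCD3 signal and 0.26 in mock signal.

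Of 17 genes listed as targets of EGR proteins, 12 were on the array, 10 passed the filter and none was called in any of the 5 comparisons. In control mice their median log2 induction was 0.18. The highest were the cytokine gene *Tnf* at 2.00 (standard error 0.27, adjusted p = 0.0603), *Ndrg1* at 0.68, a gene of T-cell anergy, and *Fasl*, the FAS ligand gene, at 0.59, and the 1 below 0 was *Socs3*, a cytokine signalling inhibitor, at -0.08. In MED23 null mice *Tnf* was at 2.37 (standard error 0.38), and its difference in induction was 0.37 (standard error 0.46). After αCD3, 9 of the 10 had a lower mean log2 signal in null than in control mice, with a median difference of -0.30 against -0.01 over all probe sets. In mock-treated cells it was 8 of 10, with a median of -0.38 against 0.01. Single differences ran from -0.83 to 0.61 after αCD3 and from -0.73 to 0.84 in mock, with *Socs3* the highest in both. The lower median of the list was thus present without stimulation as well, and the median difference in induction was -0.07.

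The probe sets most like each member over the 12 arrays were ranked by Pearson's r of log2 signals, as a description, since the 12 points share 6 mice and both treatments. Nearest to *Nab2* were *Cd5* (r = 0.989) and *Cd6* (0.988), a pair of related surface receptors that dampen T-cell receptor signals, then the immediate early gene *Ier2* (0.971), the lamin gene *Lmna* (0.959) and the phosphatase gene *Ptpn6* (0.957). Nearest to *Egr1* were *Cd5* (0.944), *Nfatc1*, a calcium-regulated transcription factor (0.942), the survival gene *Bcl2* (0.935), *Nab2* itself (0.935) and *Lmna* (0.925). Nearest to *Egr2* were *Nfkbiz*, an inhibitor family member of NF-κB (0.958), *Nfatc1* (0.944), *D17H6S56E-5* (0.941), *Birc3* (0.936) and the chemokine gene *Xcl1* (0.935). Between the members, r was 0.880 for *Egr1* and *Egr2* and 0.851 for *Egr2* and *Nab2*. The second *Egr1* probe set was nearest to *Akr1c13* (0.880), *Tspan9* (0.854), *Shkbp1* (0.848), *Sln* (0.848) and *Ms4a2* (0.847), none of which was near another member.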

How the data were processed

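Total thymocyte RNA of 6 mice was measured on 12 Affymetrix U74Av2 murine arrays. The deposited values are signal intensities on a linear scale that the authors computed per probe set with MAS5, whose version is not given in the sources used here. Arrays were brought to the trimmed mean (2% off each end) of the mock array of Lck-Cre replicate 1. A probe set was kept if any of the 6 conditions had a mean signal of 100 or more, and 66 control probe sets were left out. Log2(signal + 50) was fitted with limma 3.58.1 in R 4.3.3 and Python 3.11.15 was used for summaries. Pooled fits had 4 and genotype fits 3 residual degrees of freedom. In all, 16 comparisons were each given Benjamini-Hochberg adjusted p values over 9478 probe sets, with a threshold of 0.05. Induction was αCD3 minus mock within a mouse, as the mouse identifiers in the labels pair them, although deviations of same-mouse arrays correlated no more clearly (r of 0.061 to 0.149) than those of different mice (-0.011 to 0.122). Another label, a sample code, is repeated on the αCD3 array of Lck-Cre replicate 2 and the mock array of Med23flox/flox replicate 1 and was not used. Scripts were tested on simulated data. Precision is limited by how few arrays there are.

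Of 10855 probe sets with 1 symbol, 10839 matched GRCm38.p6 by Entrez ID, and promoter sequences are from RefSeq on that build. Genes named beside the 3 members are the other EGR and NAB genes, *Med23*, up to 3 listed genes in each direction by control induction, and the 5 probe sets with the highest correlation. The members and lists were chosen with earlier results of these data known.  The fits were repeated with 1 control genotype, quantile normalization, a variance trend, other filters, scalings and pseudocounts, the replicate number as a block, no block by mouse and leaving out each mouse.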

Additional observations from a re-analysis of the deposited data

How the results depend on the processing

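The 2 null mice and 4 controls limit every comparison. Over the 5 pooled comparisons of the 4 probe sets, 302 values kept direction and side of the threshold, 13 lost a call, 6 gained one and 6 changed sign, and in the genotype comparisons these counts were 575, 8, 4 and 18. The causes were not tested.

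For control induction, the *Egr2* call was lost with Lck-Cre controls only (3.39, adjusted p = 0.0948) and Med23flox/flox controls only (2.63, adjusted p = 0.316). The *Nab2* call was lost with Lck-Cre controls only (1.53, adjusted p = 0.323), Med23flox/flox controls only (2.06, adjusted p = 0.354) and a variance trend (1.80, adjusted p = 0.0722). *Egr1* gained a call with 10% trimmed scaling (2.15, adjusted p = 0.0407), a pseudocount of 100 (2.03, adjusted p = 0.0201) and a filter of 200 (2.17, adjusted p = 0.0268). It also gained one with no block by mouse, which left the mock and αCD3 arrays of a mouse unpaired (2.17, adjusted p = 0.00467). With 1 mouse left out these values ran from 2.77 to 3.23, from 1.66 to 1.90 and from 2.03 to 2.25. The count of all probe sets that rose, 14, became 0 with either control genotype alone, 41 with no block by mouse, 26 with a pseudocount of 100, 32 with a filter of 200, 4 with a variance trend and 3 to 9 with 1 mouse left out. After αCD3, a variance trend called 2 probe sets higher and 3 lower in null than in control mice, against none. With it the αCD3 differences of *Egr1* and *Egr2* were each at adjusted p = 0.0574 and that of *Nab2* at 0.205, so none of them passed.

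The mock difference of *Egr1*, null minus control, changed sign with 10% trimmed scaling (-0.00406), Lck-Cre controls only (-0.0067) and quantile normalization (-0.011), and ran from -0.57 to 0.59 with 1 mouse left out. Against Lck-Cre mice it was 0.0060 with a pseudocount of 100 and -0.59 to 0.57 with 1 mouse left out, against Med23flox/flox mice -0.55 to 0.61, and between the controls -0.49 to 0.42. The *Egr2* mock difference from Med23flox/flox mice was -0.014 with quantile normalization and -0.20 to 0.29 with 1 mouse left out, and that of *Nab2* between the controls -0.16 to 0.21. For the second *Egr1* probe set, quantile normalization gave 0.11 for the αCD3 difference from Med23flox/flox mice and -0.15 for the Med23flox/flox induction. With 1 mouse left out its αCD3 difference ran from -0.48 to 0.31 against all controls, from -0.50 to 0.29 against Lck-Cre mice, from -0.45 to 0.34 against Med23flox/flox mice and from -0.16 to 0.050 between the controls, and its Med23flox/flox induction from -0.19 to 0.26. With the replicate number as a block, which pairs no mice by the labels, no call changed (αCD3 differences of -0.95 for *Egr2*, -1.33 for *Egr1* and -1.19 for *Nab2*, each at adjusted p = 0.583).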
